A study of Rattus norvegicus with 6 samples.

Results

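Cytoskeleton and motor proteins were examined in whole brain polyA RNA of 3 naive male SHR rats (strain SHR/OlaIpcvPrin, the spontaneously hypertensive rat) and 3 naive male BNLx rats (BN-Lx/CubPrin, a Brown Norway congenic strain with the polydactyly-luxate trait). Both strains are inbred and differ across the genome, and each library came from 1 rat. The loci were chosen by name alone. They are the loci of the assembled transcriptome whose reference gene name belongs to the kinesins, dyneins, dynactin, myosins, tubulins, microtubule-associated proteins, actin-related proteins, Arp2/3 subunits, capping proteins, tropomodulins, spectrins, neurofilaments or plastins. This gave 71 loci with 74 member symbols, of 24744 loci in all and of 8336 with a reference gene name, and they hold 348 of the 64488 quantified isoforms. In the annotation used here no transcript of chromosomes 1 and 10 to 19 carries a gene name, so members that lie there were not analysed here. Among the loci that carry names, none has the name of a neurofilament or of an axonemal dynein heavy chain, and 2 of the 5 listed neuronal tubulins (Tuba1a and Tuba4a) were found.

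Microtubules are tubes built from dimers of alpha and beta tubulin, and the tubulin isotypes are encoded by separate genes. Kinesins carry cargo mostly towards the plus ends of microtubules, and cytoplasmic dynein, with its cofactor dynactin, towards the minus ends, which in axons means outward and homeward transport. Actin filaments are nucleated by the Arp2/3 complex, capped by capping protein and tropomodulin, bundled by plastins, lined by spectrin under the membrane and used as tracks by myosins. Neurons depend on all of these because their axons and dendrites are long.

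Total expected counts per library, the read counts that RSEM assigns to loci, were 21745966 to 41333078 in SHR and 11747048 to 12591827 in BNLx replicates 2 and 3, with 32826625 in BNLx replicate 1. The 71 loci took 1.93 to 2.45% of the counts of SHR libraries and 2.03 to 2.26% of those of BNLx libraries. The tests kept loci that reached 50 counts in 2 replicates of SHR or of BNLx, which 64 of the 71 loci did. The other 7 were Capza3, Actrt2, Actrt3, Myl1, Myl3, Kif6 and Kif23, of which Capza3, a capping protein known from the testis, was at 0 in every library. SHR replicate 1 and BNLx replicate 3 differed from the other libraries of their strain, and values without them are given where they matter. Of the loci, 15 hold more than 1 gene name, and 24 share exonic bases with a locus on the opposite strand. For 11 of these the share was 10% or more of their exonic bases. The kit did not keep strand, so reads of such pairs cannot be told apart.

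Levels between genes are given in TPM, which RSEM scales for transcript length. The alpha tubulin locus that joins Tuba1a and Tuba1b was the most abundant, at 3508, 3030 and 3056 TPM in SHR and 3427, 3291 and 4130 TPM in BNLx. The beta tubulin Tubb4a, an isotype of neurons and oligodendrocytes, followed at 1104, 1144 and 979 TPM in SHR and 1016, 1017 and 1573 TPM in BNLx, where BNLx replicate 3 was the highest library. In 7 further families the leading locus had a mean above 400 TPM over the 6 libraries. These were the kinesin light chain Klc1 (861 TPM), the non-muscle myosin light chain Myl6 (797 TPM), alpha-II spectrin Sptan1 (653 TPM), the kinesin-1 heavy chain Kif5a (582 TPM), the dynein roadblock light chain Dynlrb1 (558 TPM), the Arp2/3 subunit Arpc2 (454 TPM) and the dendritic protein Map2 (418 TPM). Capzb, a capping protein subunit, had a mean of 286 TPM, the dynactin subunit Dctn1 276 TPM, and the actin-related dynactin subunit Actr1b 176 TPM. The vesicle motor Myo5a (135 TPM), the gamma tubulin complex locus Tubgcp6 (91.3 TPM), Pls3 (55.6 TPM) and the Myh9 locus (36.0 TPM) led the families of lowest abundance. Of these, the loci of Klc1, Sptan1, Dctn1, Myl6, Map2, Tubgcp6 and Myh9 hold further gene names, so their TPM include those genes.

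**Figure D1:**
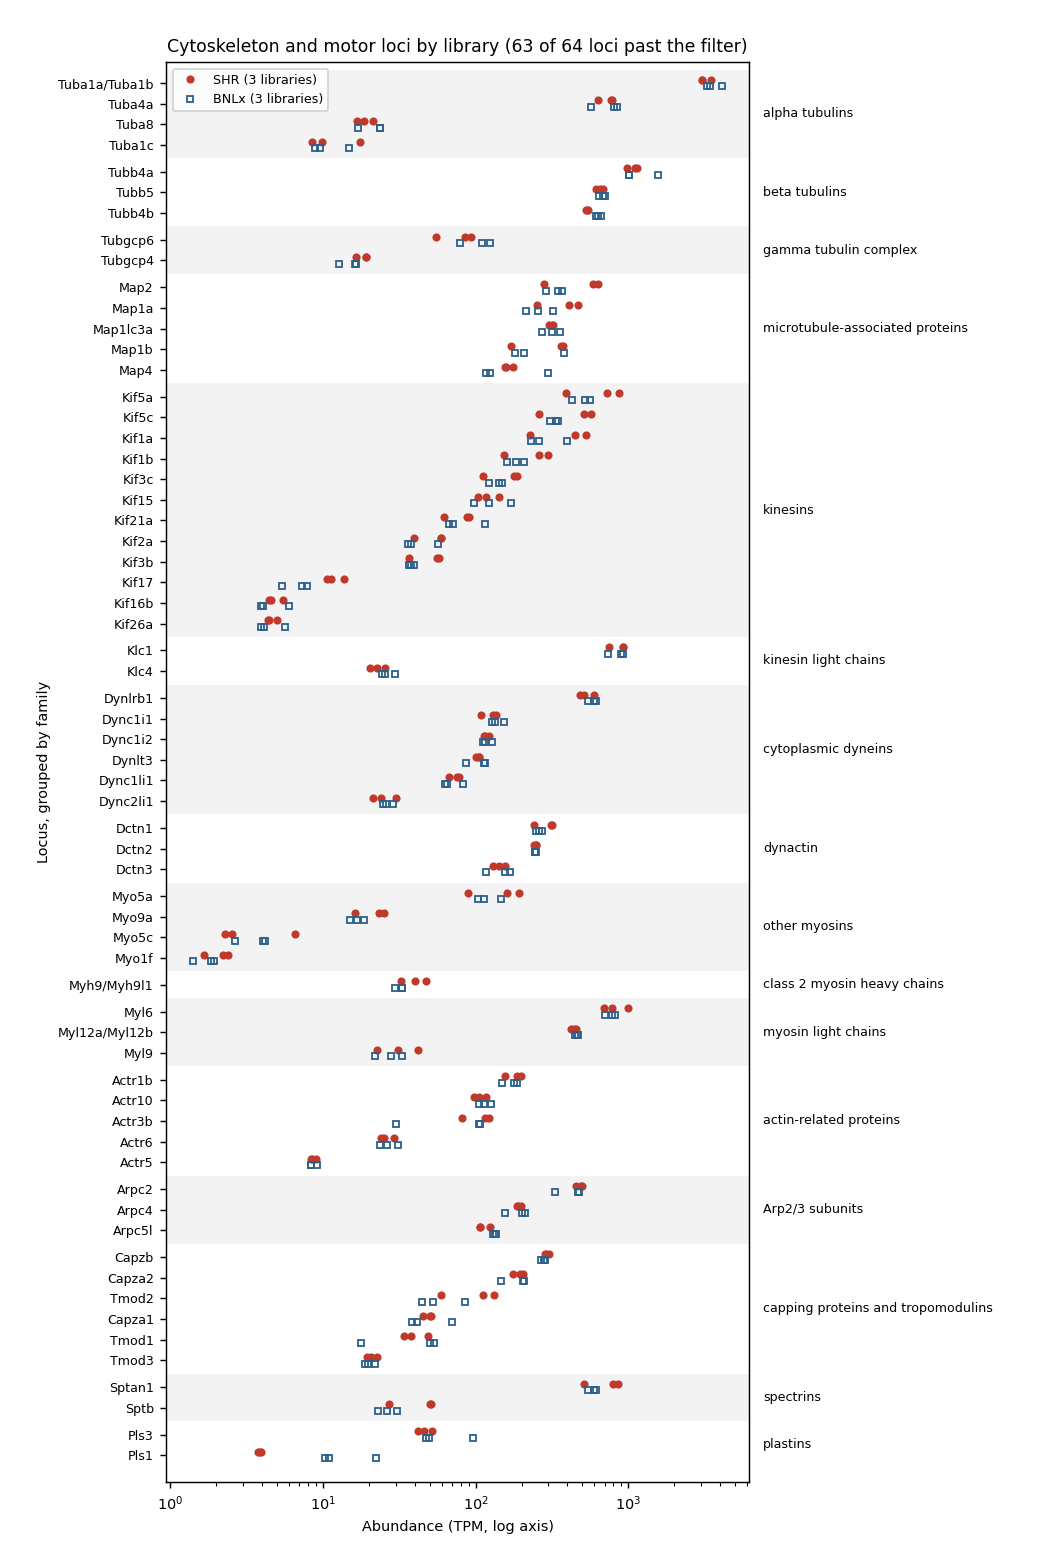
Abundance in TPM (log axis) of 63 of the 64 tested loci in each library, grouped by family. SHR libraries are filled circles and BNLx libraries open squares. The Tuba1a/Tuba1b locus lies above 3000 TPM in all 6 libraries, and Pls1 lies at 3.74 to 3.94 TPM in SHR and at 10.4 to 22.2 TPM in BNLx.

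Within families the mixture of isotypes overlapped between strains in all but the plastins and kinesin-2. Tubb4a made up 47.5% ± 2.57 of the TPM of the 3 beta tubulins in SHR and 47.2% ± 6.40 in BNLx (SD, n = 3 each). Kif5a made up 59.6% ± 1.01 of the sum of Kif5a and Kif5c in SHR and 60.4% ± 2.06 in BNLx. Dync1i1, the dynein intermediate chain typical of neurons, made up 51.7% ± 2.63 of the sum with its ubiquitous paralogue Dync1i2 in SHR and 53.9% ± 1.03 in BNLx. The tropomodulins varied more by library. Tmod2, the tropomodulin of neurons, made up 51.1, 65.9 and 65.9% of the tropomodulin TPM in SHR and 38.8, 42.1 and 68.3% in BNLx. In each of these the strains overlapped. Shares were computed for 8 families. Pls1 made up 8.55, 7.02 and 7.53% of the plastin TPM in SHR and 18.9, 17.3 and 18.7% in BNLx. Kif3b made up 22.6, 22.7 and 22.9% of the TPM of Kif3b, Kif3c and Kif17 in SHR and 22.2, 20.1 and 20.2% in BNLx, a smaller gap than that of the plastins. With 3 libraries against 3, no exact permutation test can give a two-sided p below 0.1, and the shares were given as a description and not tested.

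At the level of the locus, edgeR's quasi-likelihood test (two-sided) compared the strains on counts scaled to library size by TMM (CPM), with adjustment over all 14471 loci tested. Of the 64 loci 1 differed at an adjusted p of 0.05 or less, which is 1.56%, against a background of 1.02% of all loci. The locus was Pls1, plastin 1 or fimbrin, an actin-bundling protein best known from microvilli and the stereocilia of hair cells (chromosome 8, 103557364 to 103608913 on rn6, 1 isoform). It was at 6.50, 5.88 and 5.82 CPM in SHR and at 19.3, 17.4 and 34.5 CPM in BNLx. All SHR libraries lay below all BNLx libraries, and the BNLx libraries spread more than the SHR ones. In bulk tissue fewer cells of a type and less RNA per cell cannot be told apart. Pls1 was lower in SHR by a log2 difference of -1.96, with a standard error of 0.29 and an edgeR adjusted p of 0.0468. The DESeq2 adjusted p was 2.5e-07, while limma on log2(TPM + 1) and log2(TPM + 0.1) gave adjusted p of 0.0944 and 0.0830, and edgeR with the replicate number as a block gave 0.201. Without SHR replicate 1 and BNLx replicate 3 the difference was -1.65 (adjusted p = 0.00174 from edgeR), and without BNLx replicate 3 alone the edgeR adjusted p was 0.0210. Leaving out any other single library took it above the threshold, with adjusted p of 0.0749 to 0.257 and log2 differences between -2.14 and -1.93.

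The paralogue Pls3, plastin 3 or T-plastin, was at 59.6, 67.0 and 61.4 CPM in SHR and at 71.0, 71.7 and 129 CPM in BNLx. Its log2 difference was -0.53 (standard error 0.25, adjusted p = 0.552 from edgeR) and -0.15 without SHR replicate 1 and BNLx replicate 3. BNLx replicate 3 was the highest library for both plastins, as it was for the summed oligodendrocyte markers and for other loci such as Map4, Map1b and Kif21a. The share of Pls1 given above varied less between BNLx libraries than the level of either plastin.

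DESeq2 called 2 of the 64 loci, against a background of 3.75% of all loci. The added locus was Tubb4b, a beta tubulin made in many cell types and also a component of ciliary axonemes (chromosome 3, 2441503 to 2444281, with 16.1% of its exonic bases shared with a locus on the other strand). Tubb4b was at 344, 301 and 319 CPM in SHR and at 423, 393 and 391 CPM in BNLx. The strains did not overlap, and the log2 difference was -0.32 (standard error 0.11, adjusted p = 0.397 from edgeR and 0.0327 from DESeq2). As a share of the 3 beta tubulins, Tubb4b overlapped between strains, at 24.2, 22.6 and 24.3% in SHR and 27.3, 26.4 and 23.0% in BNLx.

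At an unadjusted p below 0.05 edgeR gave 5 of the 64 loci (7.81%), against 10.2% of all loci. Among them were Pls1, Tubb4b, Sptb and Klc4. Klc4, a kinesin light chain (chromosome 9, 16647598 to 16661464), was at 29.5, 24.4 and 22.9 CPM in SHR and at 31.6, 31.5 and 34.3 CPM in BNLx (log2 difference -0.34, standard error 0.13, adjusted p = 0.463 from edgeR). The strains did not overlap at Klc4. Sptb, erythroid beta spectrin, which neurons also make, was at 127, 218 and 223 CPM in SHR and at 115, 125 and 128 CPM in BNLx. SHR replicate 1 lay among the BNLx libraries, and the log2 difference was 0.62 (standard error 0.23, edgeR adjusted p = 0.425). Without SHR replicate 1 it was 0.84 (adjusted p = 0.0446 from edgeR), but leaving out the SHR library nearest to BNLx widens the difference by itself. With any other single library left out the edgeR adjusted p was 0.353 to 0.989. The locus shares 36.6% of its exonic bases with one on the other strand.

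Across the 64 loci the strain differences were small and balanced. The median log2 difference was -0.03, against 0.00 for all loci tested, and the median size of the difference was 0.18 in both. A difference larger than 1 was seen for 1 locus (Pls1), and 60 loci had one smaller than 0.5. On the count scale 27 loci were positive and 37 negative, but on the TPM scale 36 were positive, since the median of all loci moved by 0.07 there. SHR libraries all lay above the BNLx libraries for 1 locus (Kif17), against 8.97% of all loci, and all below them for 8 (among them Pls1, Pls3, Klc4, Tubb4b, Dync1i1, the Myl12a/Myl12b locus and Actr5), against 8.49% of all loci.

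**Figure D2:**
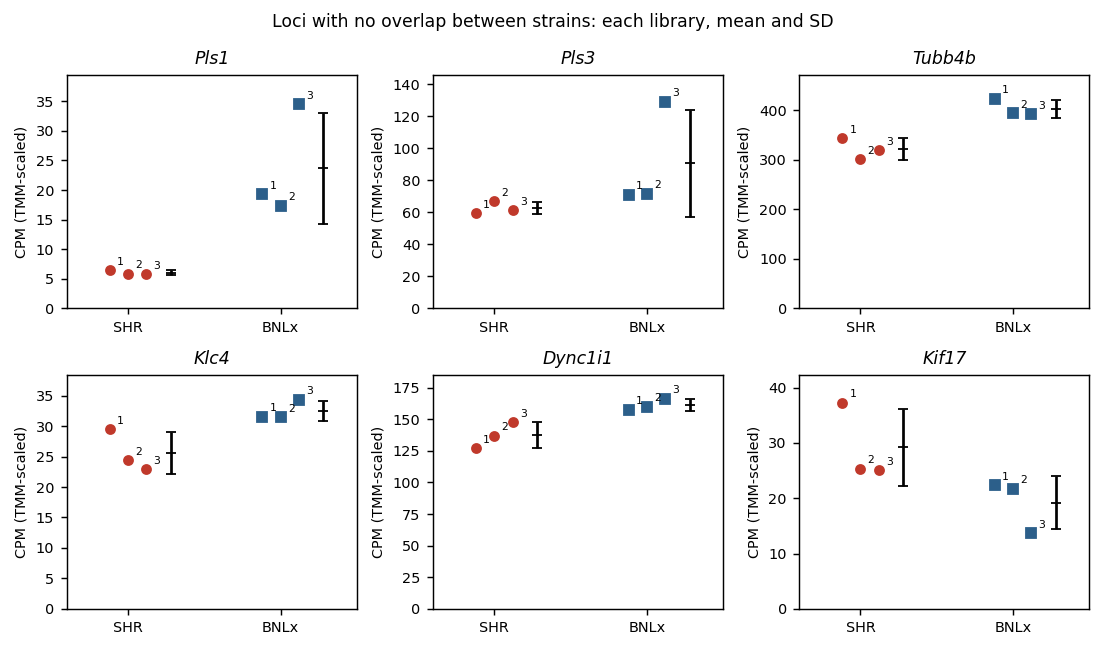
CPM of 6 loci whose SHR and BNLx libraries did not overlap, with each library numbered, and the mean and SD of each strain in black (n = 3). SHR is on the left of each panel. Pls1 alone passed the threshold at the level of the locus, with 6.07 ± 0.377 CPM in SHR and 23.7 ± 9.39 CPM in BNLx.

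The ciliary members were few. Of 14 listed motors of intraflagellar transport and other kinesins of cilia, 4 were named (Kif3b, Kif17, Dync2li1 and Kif6) and 3 tested, and none was called (edgeR, 0 of 3 also at an unadjusted p below 0.05, and 0 with DESeq2). Kif17, a homodimeric kinesin-2 that works in cilia and carries receptor cargo in dendrites (chromosome 5, 156628432 to 156708233), was at 37.3, 25.4 and 25.0 CPM in SHR and at 22.3, 21.7 and 13.6 CPM in BNLx. The strains did not overlap, and the log2 difference was 0.60 (standard error 0.26, adjusted p = 0.498 from edgeR). The gap narrowed to 0.19 without SHR replicate 1 and BNLx replicate 3, which were the highest and the lowest library. Kif3b, a heterotrimeric kinesin-2 motor subunit of cilia and axons, differed by 0.29 (standard error 0.14), and Dync2li1, a light intermediate chain of ciliary dynein 2, by -0.16 (standard error 0.21). Of 38 listed cilia genes outside the families, 13 were named and 11 tested, with a median of 0.15 and no call (1 at an unadjusted p below 0.05 from edgeR, none with DESeq2). Of 8 listed markers of ependymal cells, which carry motile cilia, 4 were tested, and they summed to 111 to 124 CPM in SHR and 109 to 125 CPM in BNLx. Most of this was Ccdc39, at 106 to 113 CPM in SHR and 93.6 to 122 CPM in BNLx. Rsph4a, a radial spoke protein of motile cilia, was at 6.57, 1.28 and 1.88 CPM in SHR and at 4.74, 0.523 and 7.70 CPM in BNLx. For Rsph4a and for the other markers, Dnai1 and Tmem212, SHR replicate 1 and BNLx replicate 3 were the highest library of their strain. The part of ependymal cells in the differences of ciliary members was not tested.

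The long neuronal members spread widely between SHR libraries. Of 9 listed motors of axons and synapses 8 were tested, of which 5 were positive on the count scale and 6 on the TPM scale, and none was called (median 0.18 on the count scale, none at an unadjusted p below 0.05 from edgeR, none with DESeq2). Map1a, Map1b and Map2, the 3 tested of 6 listed neuronal microtubule-associated proteins, had differences of 0.43, 0.17 and 0.43, none called. Map2, which spaces microtubules in dendrites, was at 280, 631 and 590 TPM in SHR and at 291, 368 and 348 TPM in BNLx. Kif5a, a motor of fast axonal transport, was at 388, 864 and 725 TPM in SHR and at 525, 566 and 425 TPM in BNLx. Kif1a, which carries synaptic vesicle precursors, was at 228, 531 and 448 TPM in SHR and at 232, 259 and 399 TPM in BNLx. In all 3, SHR replicate 1 was about level with the lowest BNLx library, and SHR replicates 2 and 3 were above every BNLx library.

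This pattern went with transcript length. In each library the log2 CPM of the 64 loci (with 0.5 added) was set against its mean over the 6 libraries and compared with effective length, as a description over loci that share 1 library. Spearman's rho was -0.53, 0.64 and 0.49 in SHR replicates 1 to 3 and -0.66, -0.52 and 0.21 in BNLx replicates 1 to 3. The 29 loci with an effective length of at least 3000 bases had median deviations of -0.24, 0.22 and 0.16 in SHR and of -0.11, -0.11 and 0.01 in BNLx. The 17 loci under 1500 bases had 0.08, -0.16 and -0.14 in SHR and 0.16, 0.08 and -0.07 in BNLx. Over all 14471 loci the same rho was -0.28, 0.39 and 0.26 in SHR and -0.35, -0.08 and 0.05 in BNLx. At the median the long loci were thus low in SHR replicate 1 and in BNLx replicates 1 and 2, and high in SHR replicates 2 and 3. Some long loci went the other way, such as Myo5c (0.825) and Kif17 (0.672) in SHR replicate 1. Length and membership of the neuronal lists were not tested apart.

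**Figure D3:**
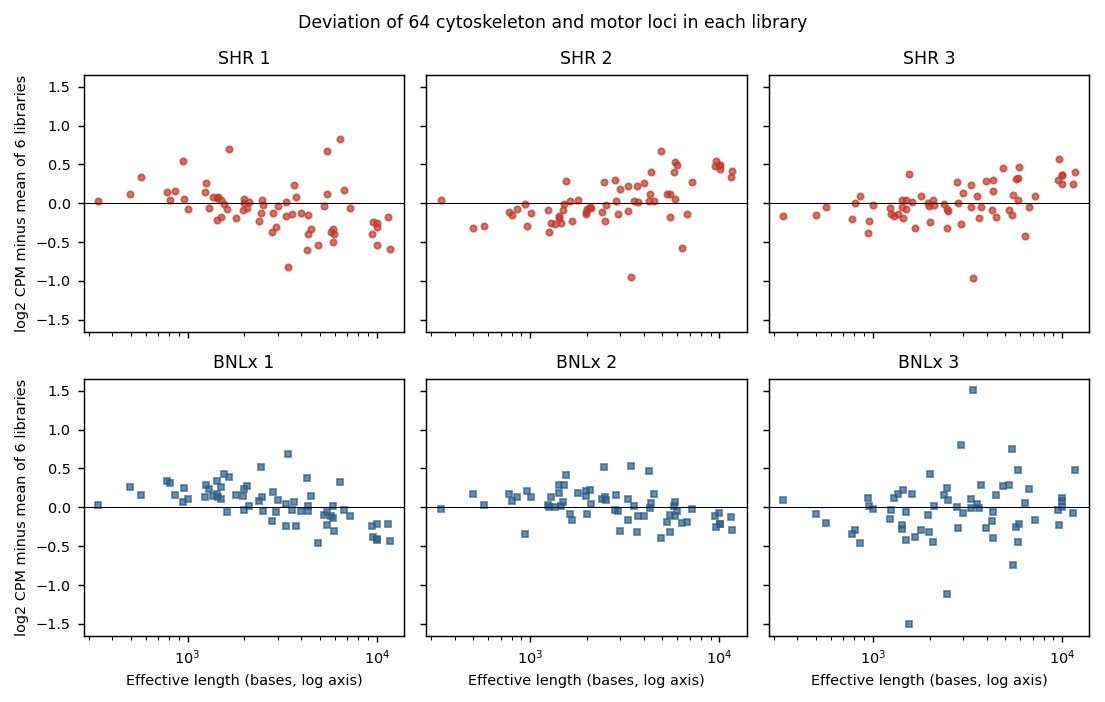
Deviation of each of the 64 loci from its mean over the 6 libraries (log2 CPM, vertical axis) against effective length in bases (log axis), for 1 library per panel, SHR above and BNLx below. The cloud slopes down in SHR 1, BNLx 1 and BNLx 2 (rho of -0.53, -0.66 and -0.52) and up in SHR 2 and SHR 3 (0.64 and 0.49).

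Leaving out SHR replicate 1 and BNLx replicate 3 changed the count of calls. Of the 64 loci 27 then passed, 15 higher and 12 lower in SHR, against a background of 28.8% of all loci. In the 4 libraries that remain the sign of rho follows the strain. The 15 higher loci had a median effective length of 5960 bases and were Sptan1, Sptb, Map1a, Map1b, Map2, Kif1a, Kif1b, Kif2a, Kif3b, Kif3c, Kif5a, Kif5c, Myo5a, Myo9a and Tmod2. The 12 lower loci had one of 1480 bases and were Tubb4b, Tuba4a, the Tuba1a/Tuba1b locus, Tubgcp6, Arpc4, Arpc5l, Capza2, Dctn3, Dynlrb1, Dynlt3, Klc4 and Pls1. Among the 27, the loci of Sptan1, Map2, Tmod2, Tubgcp6, Capza2 and Dctn3 hold further gene names. Those of Kif2a, Sptb, Tuba4a, Arpc4, Tubb4b and Tubgcp6 share 10% or more of their exonic bases with a locus on the other strand. The part of length in these differences was not tested.

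**Figure D4:**
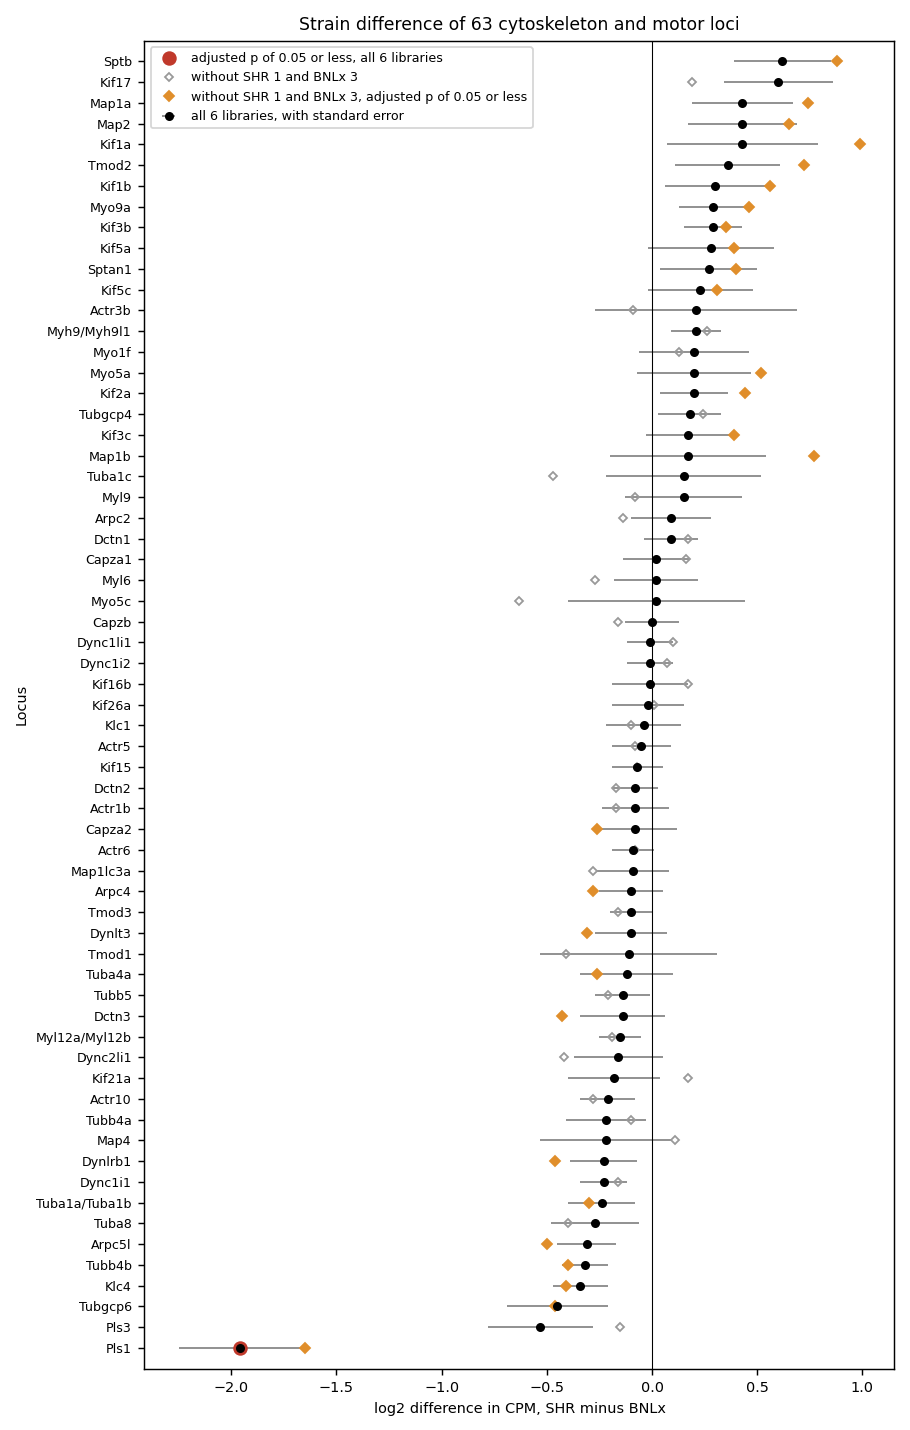
Log2 difference in CPM, SHR minus BNLx, for 63 of the 64 loci, with the standard error over all 6 libraries (black) and the value without SHR 1 and BNLx 3 (diamonds, filled where the adjusted p was 0.05 or less). With all libraries 1 locus, Pls1 at -1.96, passed the threshold, and without the 2 libraries 27 did.

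The minus-end motor differed little between strains. Of 10 listed subunits of cytoplasmic dynein 1, 5 were tested, with differences of -0.23 to -0.01 and no call (0 at an unadjusted p below 0.05 from edgeR, 0 with DESeq2). On the TPM scale 1 of the 5 was positive. Dync1i1 was at 127, 137 and 148 CPM in SHR and at 158, 160 and 166 CPM in BNLx, without overlap (log2 difference -0.23, standard error 0.11, adjusted p = 0.530 from edgeR). Of 12 listed dynactin subunits 8 were tested, at -0.21 to 0.09 on the count scale with 2 positive, and 5 positive on the TPM scale. Dctn2 lay between 243 and 249 TPM in all 6 libraries. The 4 tested of 10 listed Arp2/3 subunits had differences of -0.31 to 0.21 with no call (0 at an unadjusted p below 0.05 from edgeR, 0 with DESeq2). Actr3b, an Arp3 form of brain, was at 62.6, 76.8 and 82.3 CPM in SHR and at 84.9, 84.5 and 21.9 CPM in BNLx, so that 1 BNLx library set its standard error of 0.48.

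Partners of these proteins outside the families were also without calls in edgeR. None of 8 tested cargo adaptors and motor regulators passed (of 17 listed, median 0.06, 0 at an unadjusted p below 0.05, 0 with DESeq2). None of 7 tested actin regulators passed (of 23 listed, median 0.05, 0 at an unadjusted p below 0.05, 0 with DESeq2). Of 8 tested proteins of microtubule ends and severing (of 21 listed, median -0.02), 1 had an unadjusted p below 0.05 and was called by DESeq2. This was Stmn1, stathmin, which binds tubulin dimers. It was at 437, 515 and 472 CPM in SHR and at 765, 764 and 604 CPM in BNLx, without overlap (log2 difference -0.58, standard error 0.15, adjusted p = 0.242 from edgeR and 0.0115 from DESeq2).

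Markers of cell types also differed between libraries. Oligodendrocyte markers (4 tested of 8 listed) summed to 1967 to 4442 CPM in SHR and 3386 to 6893 CPM in BNLx, with the highest sum in BNLx replicate 3. That library was also highest for Tubb4a, Pls1 and Pls3, and for other loci such as Map4, Map1b and Kif21a. Within SHR the sum was highest in replicate 1. In CPM that library was the highest of its strain for Tubb4a and Pls1 and the lowest for Pls3. All 4 oligodendrocyte markers had negative differences (median -0.78), of which 2 had an unadjusted p below 0.05 and none was called by edgeR. DESeq2 called Mobp, a myelin protein, which was at 501.5, 425 and 290 CPM in SHR and at 970, 686 and 1530 CPM in BNLx, without overlap (log2 difference -1.39, standard error 0.35, adjusted p = 0.225 from edgeR and 0.00394 from DESeq2). Neuron markers (5 tested of 8) summed to 2793 to 4167 CPM in SHR and 3187 to 5248 CPM in BNLx, and were lowest in SHR replicate 1. The choroid plexus marker Aqp1 (1 tested of 7) was at 35.5, 5.45 and 7.10 CPM in SHR and at 15.8, 3.49 and 28.6 CPM in BNLx, highest in SHR replicate 1 and BNLx replicate 3. Astrocyte markers (3 tested of 6) summed to 3309 to 4827 CPM in SHR and 2383 to 3358 CPM in BNLx. Their part in the differences above was not tested.

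The loci carry more isoforms than most. The median was 3 isoforms per member locus and 2 per named locus, and 46.5% of member loci had a 3′ end added by aptardi, against 27.7% of named loci. Aptardi predicts polyadenylation sites from reads and sequence and adds isoforms that keep the intron chain and end elsewhere. Of the 86 aptardi isoforms of these loci 43.0% ended before the original (37 isoforms, median 709 bases), against 64.6% over the series, and 49 ended beyond it (median 949 bases). The filter left 223 of the 348 isoforms.

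With an unadjusted p of 0.001 as the threshold, edgeR called 0 of these 223 isoforms, against a background of 1.00% of all isoforms, and 15 (6.73%) had an unadjusted p below 0.05, against 8.74% of all isoforms. DESeq2 called 7, against 3.60% of all isoforms, and edgeR without SHR replicate 1 and BNLx replicate 3 called 21, against 2.92%. The 7 belong to Pls1, Actr10, Klc4, Tubb4b, Kif21a, Map1a and the Myh9 locus. Those of Kif21a, Map1a and Myh9 were at 0 in 1 SHR library and in all BNLx libraries. When the counts of an original transcript and its aptardi ends were added up, 1 of 194 transcripts was called, Pls1, against 1.14% of all transcripts, and without SHR replicate 1 and BNLx replicate 3 there were 15, against 2.48%. Pls1 has 1 isoform and no added end, so nothing was summed for it. Its counts gave an unadjusted p of 0.000762 in the edgeR fit of sums and of 0.00102 in that of isoforms, on either side of the threshold. For Klc4 1 of 3 isoforms had the largest difference. The test of isoform usage described below did not call this locus (adjusted p = 0.190 from edgeR's diffSpliceDGE and 0.137 from limma's diffSplice on voom weights). The 15-exon isoform STRG.33649.3 was at 3.69, 4.43 and 4.69 CPM in SHR and at 9.03, 8.62 and 11.6 CPM in BNLx, without overlap (log2 difference -1.19, standard error 0.25, unadjusted p = 0.00311 from edgeR and 3.5e-05 from DESeq2). The 17-exon isoforms STRG.33649.1 and STRG.33649.2 differed by -0.08 and -0.11.

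Isoform usage, the share of each isoform within its locus, was tested with diffSpliceDGE over 7742 loci with at least 2 isoforms. Of 53 loci 2 were called, against a background of 4.37%, and without SHR replicate 1 and BNLx replicate 3 there were 17, against 23.0%. Actr10 encodes the dynactin subunit Arp11, which sits at the pointed end of the dynactin filament (chromosome 6, 93385457 to 93412357). Its 3 isoforms have the same 13 exons and differ in the 3′ end alone. The middle end, that of the original isoform STRG.24931.1, held 0, 0 and 0% of the CPM of the locus in SHR and 8.29, 2.93 and 14.2% in BNLx. In CPM it was at 0 in all SHR libraries and at 6.69, 2.09 and 11.6 in BNLx. The BNLx mean of 6.79 CPM was 57.9-fold above a floor of 3 counts per library in SHR (0.117 CPM). This bound is for the mean and not for each BNLx library. The first end, 119 bases before the middle one, held 65.8, 62.8 and 65.4% in SHR and 57.3, 59.9 and 47.9% in BNLx. The last end, 781 bases beyond the middle one, held 34.2, 37.2 and 34.6% in SHR and 34.4, 37.2 and 37.9% in BNLx. Since the first and middle ends lie so close on the same exons, the split between them is left to RSEM. The adjusted p of the usage test was 1.0e-04, and 8.5e-05 to 0.00563 with each library left out in turn, but 0.399 with limma's diffSplice on voom weights. The sum over the 3 ends differed by -0.21 (standard error 0.15, unadjusted p = 0.208 from edgeR). As a share of the locus the last end overlapped between strains, and the first end did not. In CPM the first end overlapped too, at 50.9, 37.2 and 42.4 in SHR and at 46.2, 42.7 and 39.2 in BNLx.

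Kif21a, a kinesin of axons and dendrites that also restrains microtubule growth (chromosome 7, 132069910 to 132201020), was the second locus called in usage (adjusted p = 0.0331 from edgeR, 0.185 with diffSplice on voom weights). Its shorter 3′ end, shared by 3 original isoforms, held 0, 11.9 and 11.3% of the CPM of the locus in SHR and 0, 0 and 0% in BNLx. SHR replicate 1 was like the BNLx libraries. The end 1206 bases further on held all the rest. The 36-exon isoform with the further end, STRG.29470.2.1, was at 49.97, 34.5 and 21.9 CPM in SHR and at 73.4, 62.7 and 111 CPM in BNLx, without overlap (log2 difference -1.21, standard error 0.37, unadjusted p = 0.0179 from edgeR). The usage call was lost when any library other than SHR replicate 1 was left out (edgeR adjusted p of 0.0667 to 0.658). Without SHR replicate 1, the SHR library at 0 for the shorter end, the edgeR adjusted p was 2.1e-05.

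Other ends were present or absent by library and not by strain. In Map4, a microtubule-associated protein of many tissues, the earlier 3′ end held 3.27, 30.5 and 28.4% of the CPM in SHR and 0, 0 and 15.4% in BNLx. In Capza2, a capping protein subunit, the earlier end, 426 bases before the original, held 10.9, 16.6 and 17.7% in SHR and 0, 0 and 20.02% in BNLx. These are shares of the isoforms named Capza2, since the locus also holds ST7. In Dync1i1 an end 161 bases before the other held 3.65, 30.8 and 25.5% in SHR and 3.89, 0 and 38.1% in BNLx. In Kif2a, a microtubule-depolymerising kinesin, the first end held 0, 10.7 and 8.66% in SHR and 0, 0 and 15.5% in BNLx. The Kif2a locus shares 59.6% of its exonic bases with one on the other strand, whose reads cannot be told apart from its own. In each of the 4 the end was at or near 0 in BNLx replicates 1 and 2 and at 15.4% or more in BNLx replicate 3. Of the 223 isoforms, 188 (84.3%) were above 0 in all 6 libraries, against 87.2% of all 32348 isoforms. The set that was above 0 in SHR replicates 2 and 3 and BNLx replicate 3 only held 5 (2.24%), against 0.822% of all isoforms. These belong to Map4, Kif2a and the Myh9 locus. The set above 0 in SHR replicates 2 and 3 only held 4 (1.79%), against 0.448%, and these belong to Kif21a and Map1a. The Map4 isoforms share a 3′ end, as do those of Kif21a, so they are not separate observations. The libraries were spread over several lanes of a flow cell, and since the labels do not assign them to lanes, lane and these patterns cannot be told apart.

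**Figure D5:**
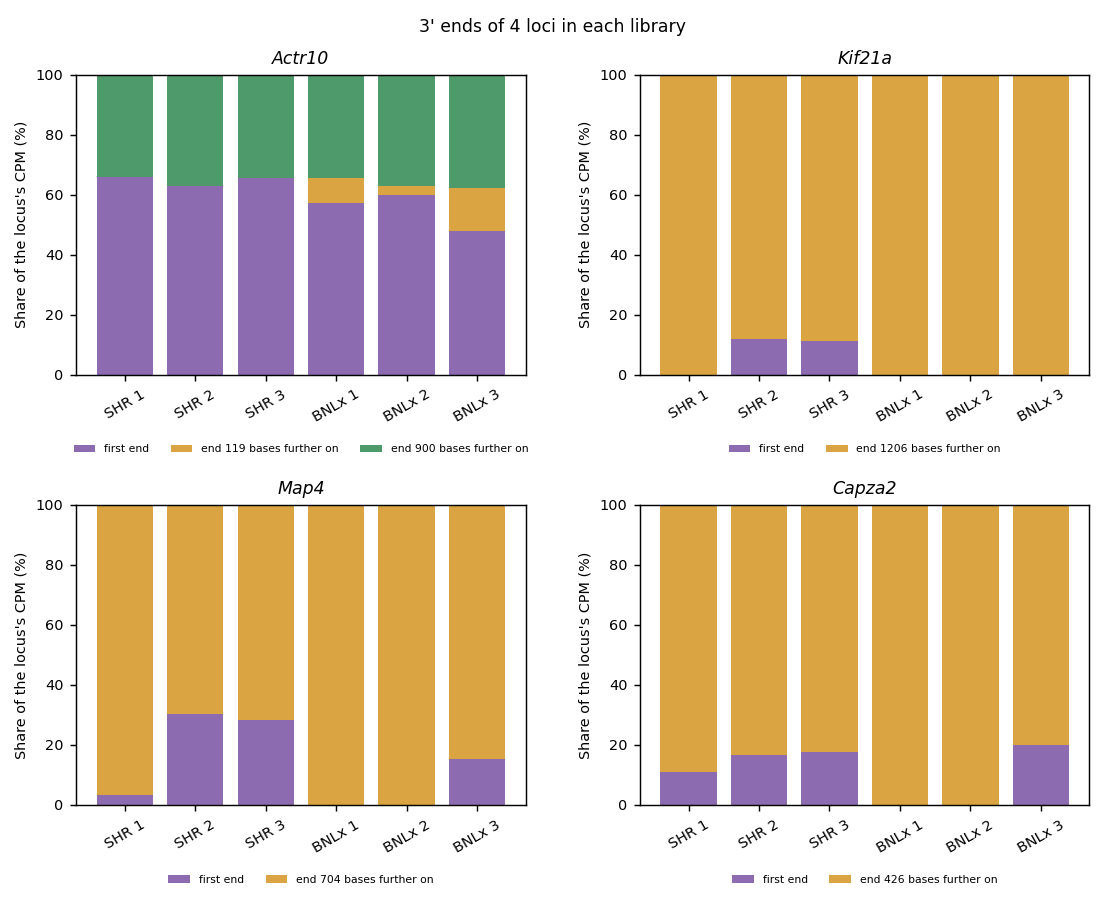
Share of the CPM of a locus at each 3′ end (bars, 0 to 100%) in each library, SHR left and BNLx right, for Actr10, Kif21a, Map4 and Capza2. Ends within 100 bases of each other are joined. For Capza2 the share is of the isoforms named Capza2, since the locus also holds ST7. The middle end of Actr10 is seen in BNLx libraries alone, the first end of Kif21a in SHR 2 and SHR 3 alone, and the first ends of Map4 and Capza2 are at 0 in BNLx 1 and BNLx 2.

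Map2 showed the same library pattern in its exons. The 13-exon isoform STRG.34704.1 was at 361, 1011 and 876 CPM in SHR and at 351, 388 and 509 CPM in BNLx, while the 11-exon isoform STRG.34704.4.2 was at 324, 58.0 and 105 CPM in SHR and at 398, 456 and 215 CPM in BNLx. SHR replicate 1 had the 2 isoforms at similar levels, as did BNLx replicates 1 and 2, and SHR replicates 2 and 3 had mostly the longer one. The log2 differences were 0.85 (standard error 0.40, unadjusted p = 0.0812) and -1.14 (standard error 0.68, unadjusted p = 0.148), both from edgeR and neither past the threshold. In the tubulin locus the isoform of Tuba1b was at 1334, 996 and 1059 CPM in SHR and at 1331, 1225 and 1605 CPM in BNLx, and that of Tuba1a at 1194, 956 and 981 CPM in SHR and at 1279, 1125 and 1125 CPM in BNLx. Both overlapped between strains, and their near-identical coding sequences leave the split between them to RSEM.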

How the data were processed

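PolyA RNA of 6 whole brains was sequenced without strand information. Per the labels and methods, the authors aligned reads with HISAT2, assembled 1 transcriptome on rn6 with StringTie 1.3.5, added 3′ ends with aptardi and ran RSEM. The deposited values are RSEM expected counts, not normalized, and TPM, which RSEM scaled to transcript length and to the library. Expected counts were rounded and fitted with edgeR 4.0.16 (R 4.3.3, TMM, strain as the only term, at least 50 counts in 2 of 3 replicates of 1 strain). Loci and usage were called at a Benjamini-Hochberg adjusted p of 0.05 over the whole table, isoforms and sums at an unadjusted p of 0.001. Alternatives were DESeq2 1.42.0, limma 3.58.1 on log2(TPM + 1) and log2(TPM + 0.1), RLE size factors, other filters, a replicate block and leaving out libraries. The fits were tested on simulated data. There the usage test made many more false calls than its threshold allows, so a usage call alone is weak. For this reason voom results and shares stand beside it.

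Members, gene lists and alternatives were chosen with earlier results of these data known. Genes named are those called in any test, the most abundant of each family, and up to 5 per direction with the largest difference among loci with 1 name, a mean of at least 100 counts and no overlap between strains. Of the latter 1 was higher and 5 were lower in SHR, and 1 of these is not reported here. Others were chosen after their values were seen. Names come from the annotation, and 70 of 71 matched a RefSeq symbol and 1 a synonym. Mitotic kinesins (1 tested of 12 listed, Kif15) and myosins of muscle and vessel walls (4 tested of 20) held no call. The Kif15 locus also holds Zfp105 and AABR07071814.1 and had a mean effective length of 337 bases, so its counts need not be those of Kif15.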

Additional observations from a re-analysis of the deposited data

How the results depend on the processing

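With all 6 libraries edgeR called 1 of 64 loci, 0 of 223 isoforms, 1 of 194 summed transcripts and 2 of 53 loci in usage. Without SHR replicate 1 and BNLx replicate 3 these counts were 27, 21, 15 and 17 (against 28.8, 2.92, 2.48 and 23.0% of all), the highest of any alternative. DESeq2 gave 2 loci, 7 isoforms and 2 summed transcripts (against 3.75, 3.60 and 3.24% of all). Limma on log2(TPM + 1) and log2(TPM + 0.1) gave 0 loci each (against 0.988 and 0.981% of all). Limma's diffSplice gave 0 loci in usage (against 2.22%), and without a filter 1 isoform passed (against 0.643%). The 6 fits that each leave out 1 library gave 0 to 1 loci, 0 to 3 isoforms, 0 to 1 summed transcripts and 1 to 5 loci in usage, against 0.0829 to 1.08%, 0.566 to 1.24%, 0.624 to 1.203% and 2.64 to 7.45% of all. Without SHR replicate 1 the locus called was Sptb and not Pls1. RLE size factors and a filter of 10 counts left the 1 locus called (against 1.01 and 1.09% of all). With the replicate number as a block (replicate block) the counts were 0 loci, 0 isoforms, 0 summed transcripts and 3 loci in usage. The shares of all features called there were 0, 0.148, 0.239 and 4.06%. Pls1 had an adjusted p of 0.201 from edgeR with this block. Same-numbered libraries of both strains had correlations of -0.04, 0.32 and -0.20 in their deviations, and differently numbered ones -0.33 to 0.25. Deviations within a strain sum to 0, so these values cannot tell whether the numbers pair the rats. The loci Pls1, Pls3, Tubb4b, Klc4, Kif17 and Sptb and isoforms of Actr10, Klc4 and Kif21a were followed under every alternative. None of them changed direction, but they were picked by their values in these data. Other loci changed direction without SHR replicate 1 and BNLx replicate 3. The Kif21a locus went from -0.18 to 0.17, Actr3b from 0.21 to -0.09 and Map4 from -0.22 to 0.11. With 3 rats a strain and a standard error of 0.19 at the median locus, differences as small as most of those seen here were not detectable.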
